A study of Arabidopsis thaliana with 16 samples.

Results

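The XTH family of Arabidopsis thaliana comprises the xyloglucan endotransglucosylase/hydrolase genes, and its 33 members were taken by their AGI identifiers as XTH1 to XTH33. Each gene was given the assembled locus on its own strand that overlapped it most over exons, provided that the overlap reached 50% of the gene or of the locus. A locus was found for 29 of the 33 members in the zeocin experiment and for 30 of the 33 in the UV-C experiment. The libraries were made from Col-0 wild-type seedlings grown in vitro for 15 days, and all 4 groups shared this genotype and age. One experiment set 5 libraries of plants given zeocin at 200 microg/ml over 3 h against 5 mock libraries. The other set 3 libraries of plants irradiated with UV-C at 8 kJ/m2 against 3 mock libraries of its own. The time between UV-C exposure and harvest and the handling of the mock seedlings were not given in the sources used here. Zeocin is a bleomycin-type antibiotic that breaks both DNA strands, and UV-C light mainly links neighbouring pyrimidines. The study asked which transcripts respond to damage of each kind, and the comparison asked here was how the XTH genes behaved under the same treatments.

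XTH enzymes act on xyloglucan, the hemicellulose that lies between and on cellulose microfibrils in the primary cell wall. Most cut a xyloglucan chain and join the new end to another chain, and a few cut it and add water. By these reactions they loosen, strengthen or rebuild the wall while cells grow, when tissue is wounded or bent, and when vessels form. XTH22, also called TCH4, is known for its response to touch. Several members are known mainly from roots, among them XTH17 to XTH21 and XTH26.

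Library totals ran from 31185080 to 44536500 counted fragments in the zeocin experiment and from 27973871 to 37507136 in the UV-C experiment. Plastid genes took 30.6% to 35.8% of the fragments in the zeocin mock libraries and 34.3% to 37.3% after zeocin. They took 44.2% to 46.8% in the UV-C mock libraries and 37.0% to 40.5% after UV-C, so this share fell together with the UV-C treatment, and its part in the results below was not tested. Leaf genes were abundant throughout, with the leaf markers (among them RBCS1A, a small subunit of Rubisco) summing to between 12051.8 and 20457.3 CPM (counts scaled to library size) in each library. Of the 5 leaf markers listed, 4 were tested in the zeocin experiment and 5 in the UV-C experiment. Root genes were present too, as the label of whole seedlings implies, but root hair markers were near the floor in the UV-C experiment. They summed to 42.8 to 76.7 CPM in the zeocin mock libraries and to 2.01 to 6.04 CPM in the UV-C mock libraries. For the root markers these sums were 209 to 274 and 35.4 to 60.8 CPM. The cause of this was not tested. Levels below are CPM after TMM scaling within an experiment. The tables of the 2 experiments were counted over different assemblies and scaled separately, so levels were compared only within an experiment. In such whole-seedling samples, fewer cells of a type and less RNA per cell cannot be told apart.

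In 32 of the 33 genes the coding sequence matched a set pattern for the stretch around the catalytic site, with its 3 acidic residues. XTH11 did not match the pattern, which does not show that it lacks the site. The coding stretch of 30 bases is shown for members that the results turn on, read from the TAIR10 genome by the RefSeq annotation (build TAIR10.1), with the codons of the acidic residues in capitals.
XTH4: catgacGAGataGACtttGAGttccttgga
XTH9: cacaacGAAttcGATtttGAGttcttaggg
XTH18: tgggatGAGattGATttcGAGttcttagga
XTH19: tgggatGAGattGATttcGAGtttttgggg
XTH22: tgggacGAGataGATttcGAGtttttaggg
XTH23: tgggacGAGattGACtttGAGttcttggga
XTH28: catgacGAGattGATtttGAGtttttgggg
XTH31: cacgatGAGgtcGATatcGAGtttctaggg
XTH33: cacgacGAGataGACataGAAttgttgggt
The pattern itself asked for the 3 acidic residues, so every member that matched had to carry their codons, whether it rose or fell. Several members are close copies of each other. The coding sequences of XTH17 and XTH18 were identical at 92.2% of aligned bases, those of XTH18 and XTH19 at 89.2%, those of XTH12 and XTH13 at 89.7%, and those of XTH22 and XTH23 at 82.4%. The longest run shared by XTH18 and XTH19 was 68 bases, so fragments from the most alike copies could have been left uncounted by the authors' counting where they mapped to both, and the values of these genes are uncertain to that extent.

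The plot of levels in the zeocin experiment shows the 28 members that passed the filter on low counts, which asks for about 10 counts in at least as many libraries as a group holds. XTH24, also called MERI5B, had the highest level per kilobase in both groups, 759 ± 177 CPM per kb in mock and 806 ± 175 after zeocin (SD, n = 5). XTH22 followed with 221 ± 59.4 and XTH4 with 207 ± 32.1 CPM per kb in mock, and these neighbours in the order did not differ beyond their spread. The 3 highest members made up 68.9% ± 3.03 of the family's CPM in mock and 70.6% ± 2.35 after zeocin. The summed CPM of the family was 2080 ± 257 in mock and 2447 ± 331 after zeocin, and the groups overlapped, from 1645 to 2309 against 1956 to 2799.

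**Figure D1:**
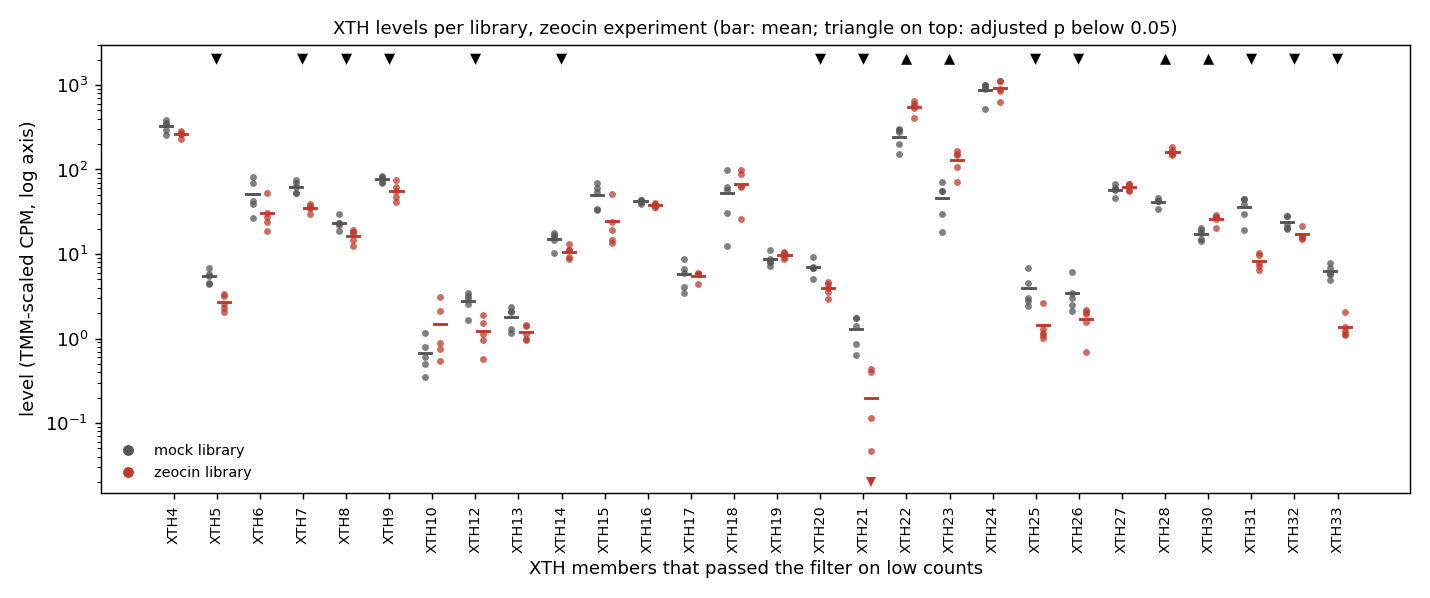
Levels of the 28 XTH members that passed the filter in the zeocin experiment, as TMM-scaled CPM on a log axis, with 1 point per library (5 mock in grey, 5 zeocin in red), a bar at the mean and a triangle at the bottom for a library at 0. A triangle on top marks members with an adjusted p below 0.05, pointing the way of the change, as for XTH28 at 33.8 to 45.8 CPM in mock and 149 to 183 after zeocin.

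After 3 h of zeocin, more members fell than rose. Of the 28 members tested, 13 were lower and 4 were higher at an adjusted p below 0.05 (edgeR quasi-likelihood test, Benjamini-Hochberg adjustment over all loci). Of all 19447 loci tested, 12.0% were called lower and 15.0% higher, or 27.0% in either direction. Among the tested members 46.4% were lower and 14.3% higher. The share called higher was thus near the background. The median log2 change was -0.49 over the tested members and -0.02 over all loci. XTH28, XTH23, XTH22 and XTH30 rose. XTH21, XTH33, XTH31, XTH25, XTH12, XTH26, XTH5, XTH20, XTH7, XTH8, XTH14, XTH32 and XTH9 fell. Nothing in the labels says that replicates came from separate cultures, so these p-values measure the spread between libraries, which may be technical.

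XTH28 (AT1G14720, chr1:5066525-5068677, minus strand) showed the steepest rise in the family after zeocin. It is known for its part in the elongation of stamen filaments. Its level was 42.5, 42.4, 33.8, 42.1 and 45.8 CPM in the mock libraries and 149, 183, 169, 151 and 155 CPM after zeocin. All zeocin libraries lay far above all mock libraries. The log2 change was 1.97 ± 0.10 (SE), a 3.91-fold rise, with an adjusted p of 1.01e-09 (edgeR). By level per kilobase it moved from place 12 among the members in mock to place 4 after zeocin.

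XTH23 and XTH22 are close relatives that are known to respond to touch and other stimuli. XTH23 (AT4G25810, chr4:13128394-13129927, plus strand) stood at 18.4, 56.2, 70.2, 56.2 and 29.9 CPM in mock and at 70.2, 167, 150, 107 and 153 CPM after zeocin. The groups met at 70.2 CPM without overlapping, and replicate 1 was the lowest of its group on both sides. The log2 change was 1.49 ± 0.39 with an adjusted p of 0.0204 (edgeR). XTH22 (AT5G57560, chr5:23307006-23308680, minus strand) stood at 151, 297, 293, 275 and 198 CPM in mock and at 409, 645, 531, 562 and 588 CPM after zeocin. The groups were apart and again replicate 1 was lowest in each. The log2 change was 1.17 ± 0.19 with an adjusted p of 0.000440 (edgeR). Replicate 1 was the lowest zeocin library for 15 of the 28 members and the lowest mock library for 12 of the 28. XTH30, a member of the class XTH27 to XTH33, rose less, from 17.4 ± 2.69 to 25.9 ± 3.23 CPM (log2 change 0.58 ± 0.12, adjusted p = 0.00209, edgeR).

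The deepest falls after zeocin were in XTH21, XTH33 and XTH31. XTH31 (AT3G44990, chr3:16446935-16448844, minus strand) encodes an enzyme for which xyloglucan hydrolysis has been described. Its level was 19.1, 29.8, 45.0, 44.8 and 38.9 CPM in mock and 6.53, 9.81, 10.2, 7.27 and 7.92 CPM after zeocin. The lowest mock library was well above the highest zeocin library, and the log2 change was -2.09 ± 0.23 (adjusted p = 5.89e-05, edgeR). XTH33 encodes a member with a membrane anchor. It stood at 4.88, 5.78, 7.81, 6.91 and 5.81 CPM in mock and at 1.21, 1.38, 1.10, 1.12 and 2.04 CPM after zeocin. The 2 groups were clearly apart, and the log2 change was -2.18 ± 0.20 (adjusted p = 1.30e-06, edgeR). XTH21, which is known to affect primary root growth, had few fragments, 26 to 76 per mock library and 0 to 18 per zeocin library. It passed the filter through the mock group alone, so it had to differ, and the count of members that fell includes it. Its level was 0.861, 1.77, 0.640, 1.41 and 1.75 CPM in mock and 0.116, 0.0467, 0.441, 0.397 and 0 CPM after zeocin, with a log2 change of -2.70 ± 0.63 (adjusted p = 0.00596, edgeR).

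The other members that fell did so less steeply. XTH20, known from the root, fell from 6.99 ± 1.49 to 3.91 ± 0.71 CPM, with all 5 zeocin libraries below all 5 mock libraries. XTH26, known from root hairs, stood at 2.12, 2.5, 3.03, 3.44 and 6.11 CPM in mock and 0.694, 1.96, 2.08, 2.15 and 1.56 CPM after zeocin, so the groups overlapped slightly (log2 change -1.03 ± 0.33, adjusted p = 0.0317, edgeR). XTH12 stood at 2.53, 1.67, 3.47, 2.90 and 3.16 CPM in mock and 0.578, 1.12, 1.91, 0.959 and 1.53 CPM after zeocin, where replicate 3 reached the mock range (log2 change -1.16 ± 0.29, adjusted p = 0.00792, edgeR). XTH5 stood at 4.45, 4.58, 5.42, 6.91 and 5.79 CPM in mock and 3.15, 3.36, 2.32, 2.55 and 2.04 CPM after zeocin, with no overlap (log2 change -1.02 ± 0.18, adjusted p = 0.000584, edgeR). XTH25, a neighbour of XTH22 in the genome, stood at 4.54, 6.92, 2.78, 2.43 and 2.98 CPM in mock and 2.63, 1.31, 1.15, 1.02 and 1.11 CPM after zeocin, where only replicate 1 reached the mock range (log2 change -1.44 ± 0.34, adjusted p = 0.00621, edgeR). XTH7 fell from 62.4 ± 9.82 to 35.1 ± 3.32 CPM without overlap. XTH8, XTH9, XTH14 and XTH32 fell by 0.50, 0.44, 0.50 and 0.48 on the log2 scale, and in each the groups overlapped. Some of these calls were lost with 1 library left out (edgeR). XTH9 lost its call without mock replicate 1, 2 or 5 or zeocin replicate 2, 3 or 5, with adjusted p-values of 0.0566 to 0.0800. XTH14 lost it without mock replicate 3 or 5 or zeocin replicate 2, with adjusted p-values of 0.0561 to 0.0610. XTH26 lost it without mock replicate 4 or 5 or zeocin replicate 2 or 5, with adjusted p-values of 0.0530 to 0.0899.

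Markers of the root fell in the same libraries. Of the 8 root markers, 6 fell and none rose after zeocin, where 12.0% of all loci were called lower, and their summed level was 209 to 274 CPM in mock and 86.9 to 107 CPM after zeocin. The nitrate transporter gene NRT2.1 fell by 2.81 ± 0.19 and the root meristem gene PLT1 by 1.57 ± 0.46 on the log2 scale. PLT1, counted among the 6, passed the filter through the mock group alone, so it had to differ. Of the 6 root hair markers, which include the expansin genes EXPA7 and EXPA18, 5 fell and none rose, with sums of 42.8 to 76.7 CPM against 24.4 to 43.3 CPM, and the cell wall protein gene PRP3 and EXPA18 fell by 1.12 and 1.03. No marker of either list was at 0 in a whole group. At an unadjusted p below 0.05, 1 root hair marker and 0 root markers were higher, and DESeq2 called 0 of either higher. Of the 4 leaf markers and the 3 xylem secondary wall markers tested, edgeR called 0, as did DESeq2, and 0 had an unadjusted p below 0.05. The part of these marker changes in the falls of XTH5, XTH12, XTH20, XTH21, XTH26 and the other members was not tested.

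The other 11 tested members were not called after zeocin. XTH4 stood at 258 to 381 CPM in mock and 231 to 284 CPM after zeocin (log2 change -0.31 ± 0.11, adjusted p = 0.0505, edgeR), and was called without mock replicate 3 or 4 or zeocin replicate 1 (adjusted p of 0.0167 to 0.0465, edgeR). XTH15 stood at 68.5, 59.8, 33.8, 33.4 and 54.5 CPM in mock and at 19.5, 13.4, 14.7, 23.9 and 51.6 CPM after zeocin. Only zeocin replicate 5 lay in the mock range, and the log2 change was -1.02 ± 0.41 with all libraries (adjusted p = 0.100) and -1.48 without that replicate (adjusted p = 0.00419, edgeR). XTH10 had 11 to 122 fragments per library and a log2 change of 1.12 ± 0.48 (adjusted p = 0.101, edgeR), or 1.33 without zeocin replicate 1 (adjusted p = 0.0392, edgeR). XTH18 varied within groups, from 12.5 to 98.4 CPM in mock and from 25.9 to 99.1 CPM after zeocin, with replicate 1 lowest on both sides. XTH13 was called without mock replicate 2 alone (log2 change -0.73, adjusted p = 0.0467, edgeR). The changes of XTH6, XTH13, XTH16, XTH17, XTH19, XTH24 and XTH27 lay between -0.75 and 0.17 on the log2 scale. XTH29 had 0 to 15 fragments per library and did not pass the filter, and XTH1, XTH2, XTH3 and XTH11 had no locus.

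In the UV-C experiment 24 members passed the filter. The highest per kilobase in mock were XTH4 with 147 ± 27.4, XTH9 with 137 ± 34.5 and XTH22 with 102 ± 69.3 CPM per kb (SD, n = 3), which did not differ beyond their spread. After UV-C the order began with XTH22 at 88.0 ± 19.3, XTH18 at 69.5 ± 8.59 and XTH4 at 45.6 ± 5.17 CPM per kb. XTH18 had been place 17 in mock. The summed CPM of the family was 661 to 998 in mock and 531 to 603 after UV-C.

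**Figure D2:**
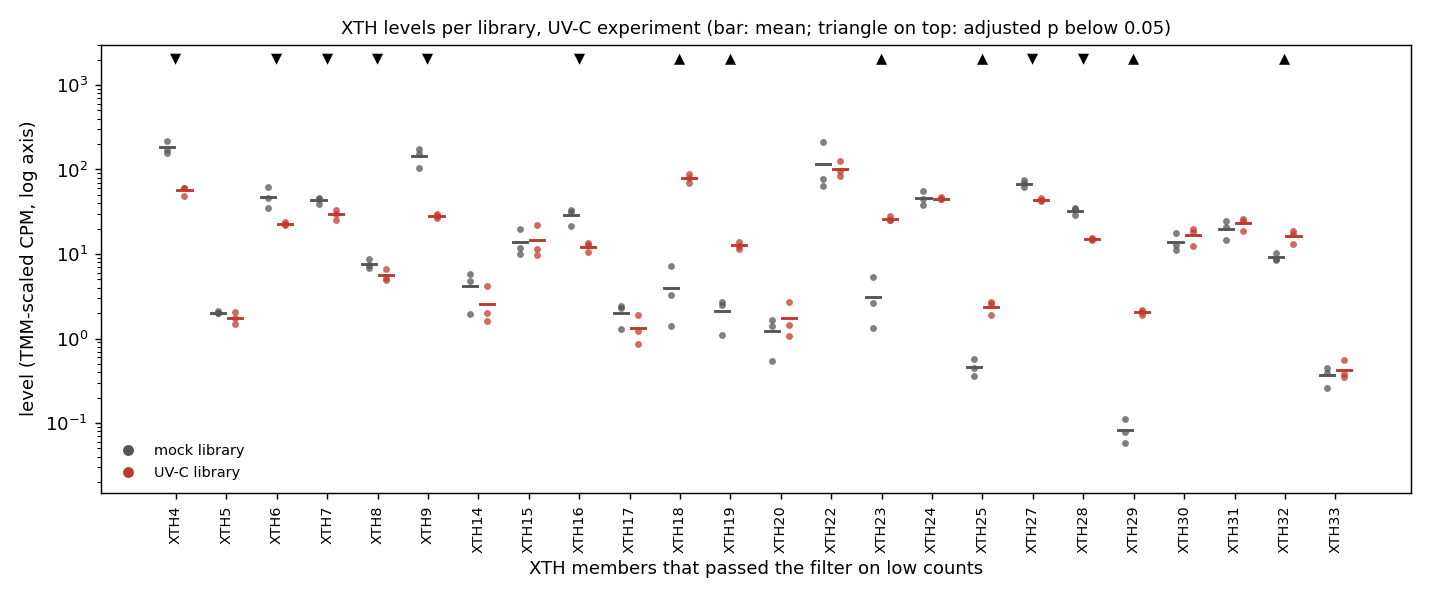
Levels of the 24 XTH members that passed the filter in the UV-C experiment, as TMM-scaled CPM on a log axis, with 1 point per library (3 mock in grey, 3 UV-C in red) and a bar at the mean. A triangle on top marks an adjusted p below 0.05 and its direction, as for XTH18 at 1.41 to 7.31 CPM in mock and 68.8 to 88.2 after UV-C, and XTH9 at 104 to 175 and 26.4 to 29.5 CPM.

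After UV-C, 6 of the 24 tested members rose and 8 fell (edgeR, adjusted p below 0.05). UV-C moved much of the transcriptome, with 64.4% of the 19587 loci tested called, 33.6% higher and 30.9% lower. The shares of the tested members, 25.0% higher and 33.3% lower, were near this background and are no result about the family. The median log2 change was -0.11 over the tested members and 0.00 over all loci. XTH29, XTH18, XTH23, XTH19, XTH25 and XTH32 rose. XTH9, XTH4, XTH16, XTH28, XTH6, XTH27, XTH7 and XTH8 fell.

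XTH18 and XTH19 are neighbours on chromosome 4, 1500 bases apart, and are known from roots, XTH19 also from tissue reunion after wounding. XTH18 (AT4G30280, chr4:14825757-14827211, minus strand) stood at 3.30, 1.41 and 7.31 CPM in mock and at 68.8, 78.2 and 88.2 CPM after UV-C. The libraries of the 2 groups were far apart, with a log2 change of 4.29 ± 0.46 and an adjusted p of 0.000137 (edgeR). Without mock replicate 3, the highest mock library, the log2 change was 5.02. XTH19 (AT4G30290, chr4:14828712-14830224, minus strand) stood at 2.5, 1.09 and 2.71 CPM in mock and at 11.4, 12.5 and 13.9 CPM after UV-C. The groups did not overlap, and the log2 change was 2.58 ± 0.27 (adjusted p = 6.39e-05, edgeR). XTH24, on the other side of XTH18, stood at 44.5, 37.7 and 54.9 CPM in mock and 44.4, 44.3 and 47.2 CPM after UV-C (log2 change -0.01 ± 0.12, adjusted p = 0.930, edgeR). XTH17, the closest relative of XTH18, stood at 2.02 ± 0.63 CPM in mock and 1.33 ± 0.54 after UV-C over a locus that covered 40.0% of the gene (adjusted p = 0.134, edgeR), and was called lower without mock replicate 2 or UV-C replicate 3 (adjusted p = 0.0241 and 0.0347, edgeR). The summed level of the root markers was 35.4 to 60.8 CPM in mock and 21.3 to 37.9 CPM after UV-C, with 2 of 6 tested lower and 0 higher by edgeR, by DESeq2 or at an unadjusted p below 0.05. Of all loci, 30.9% were lower and 33.6% higher after UV-C, so the count of lower root markers was near that share. The root hair markers summed to 2.01 to 6.04 CPM in mock and 2.61 to 4.73 CPM after UV-C. Of the 5 tested, edgeR called 0, as did DESeq2, and 1 was lower at an unadjusted p below 0.05 (edgeR).

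XTH23 stood at 2.65, 1.32 and 5.33 CPM in mock and at 28.3, 25.0 and 25.2 CPM after UV-C. Each treated library was several times above each mock library, with a log2 change of 3.07 ± 0.38 (adjusted p = 0.000303, edgeR) and of 3.69 without mock replicate 3. XTH14 begins 363 bases downstream of XTH23 on the same strand and had 1.96 to 5.78 CPM in mock and 1.59 to 4.15 CPM after UV-C (log2 change -0.70, adjusted p = 0.241, edgeR, or -1.05 and 0.0411 without mock replicate 2). XTH22, the relative of XTH23, stood at 64.4, 77.9 and 209 CPM in mock and at 95.2, 82.9 and 126 CPM after UV-C. Mock replicate 3 was above all other libraries, the groups overlapped, and the log2 change was -0.21 ± 0.44 (adjusted p = 0.699, edgeR). Without that library the direction turned, to 0.50 (adjusted p = 0.0561, edgeR), and all 3 UV-C libraries lay above both mock libraries.

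XTH25 (AT5G57550, chr5:23304782-23306440, minus strand) lies next to XTH22, 565 bases away. Its level was 0.364, 0.575 and 0.446 CPM in mock and 2.54, 1.88 and 2.73 CPM after UV-C, from 14 to 20 and 54 to 71 fragments per library. The groups did not overlap, and the log2 change was 2.36 ± 0.27 (adjusted p = 2.52e-05, edgeR). The UV-C locus of XTH25 held 1252 bases in 2 blocks, of which 1032 bases lay on exons of the gene. In the zeocin experiment its locus held 1041 bases in 3 blocks, all on exons. XTH32 stood at 8.58, 10.4 and 8.73 CPM in mock and 18.8, 17.2 and 13.1 CPM after UV-C, all 3 above mock (log2 change 0.83 ± 0.14, adjusted p = 0.000516, edgeR). XTH29 stood at 0.078, 0.0575 and 0.112 CPM in mock and 2.20, 1.91 and 2.07 CPM after UV-C, from 2 to 4 and 54 to 58 fragments. It passed the filter through the UV-C group alone, so it had to differ (log2 change 4.58 ± 0.32, adjusted p = 7.95e-07, edgeR). Its locus was 1 unspliced block of 2675 bases that ran across the introns of the gene, so these fragments are not shown to come from spliced XTH29 RNA.

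The members that fell after UV-C included the most abundant ones. XTH9 (AT4G03210, chr4:1415617-1417444, plus strand), which is known from the shoot apex and xylem, stood at 104, 154 and 175 CPM in mock and at 29.5, 28.2 and 26.4 CPM after UV-C. The treated libraries were close together and far below mock, with a log2 change of -2.37 ± 0.19 (adjusted p = 1.93e-05, edgeR). XTH4 (AT2G06850, chr2:2763449-2765743, plus strand), also known from growing stems and xylem, stood at 155, 171 and 220 CPM in mock and at 60.6, 49.1 and 59.6 CPM after UV-C. All treated libraries lay below all mock libraries, with a log2 change of -1.69 ± 0.14 (adjusted p = 8.97e-06, edgeR). In the same libraries the leaf markers summed to 16622.1 to 18150.5 CPM in mock and 12052 to 12663 CPM after UV-C. Of the 5, 3 were lower and 2 higher, where 30.9% of all loci were lower and 33.6% higher. The part of the leaf markers in these falls was not tested.

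XTH16 stood at 21.5, 33 and 31.6 CPM in mock and 13.3, 12.7 and 10.6 CPM after UV-C (log2 change -1.23 ± 0.17, adjusted p = 0.000296, edgeR). XTH28 stood at 35.2, 34.1 and 28.6 CPM in mock and at 15.3, 14.9 and 14.8 CPM after UV-C (log2 change -1.12 ± 0.09, adjusted p = 2.39e-06, edgeR). XTH6 stood at 35.2, 45.7 and 61.5 CPM in mock and 22.6, 22.1 and 24.0 CPM after UV-C (log2 change -1.05 ± 0.19, adjusted p = 0.00204, edgeR). In XTH16, XTH28 and XTH6 all treated libraries were below all mock libraries, and XTH28 thus moved in the opposite direction to its change after zeocin. XTH27, which is known from vein development in leaves, fell by 0.64 on the log2 scale, XTH7 by 0.56 and XTH8 by 0.46. The call of XTH8 was lost without mock replicate 3, UV-C replicate 2 or UV-C replicate 3, with adjusted p-values (edgeR) of 0.0620 to 0.0775.

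The 10 tested members that were not called, XTH5, XTH14, XTH15, XTH17, XTH20, XTH22, XTH24, XTH30, XTH31 and XTH33, had log2 changes between -0.70 and 0.52. XTH31, which fell after zeocin, stood at 24.7, 14.6 and 20.7 CPM in the UV-C mock libraries and 25.7, 24.7 and 18.7 CPM after UV-C. XTH33 had 9 to 16 fragments per library in both groups, which leaves little precision. XTH10, XTH11, XTH12, XTH13, XTH21 and XTH26 had at most 20 fragments in any library and did not pass the filter. In the fit without the filter, XTH10 had a log2 change of 1.70 ± 0.50 (adjusted p = 0.0114) and XTH11 of 2.39 ± 0.68 (adjusted p = 0.0103, edgeR for both), from 3 to 5 against 6 to 13 and from 1 to 3 against 3 to 13 fragments per library. The other 4 were not called there. XTH1, XTH2 and XTH3 had no locus in this table either.

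**Figure D3:**
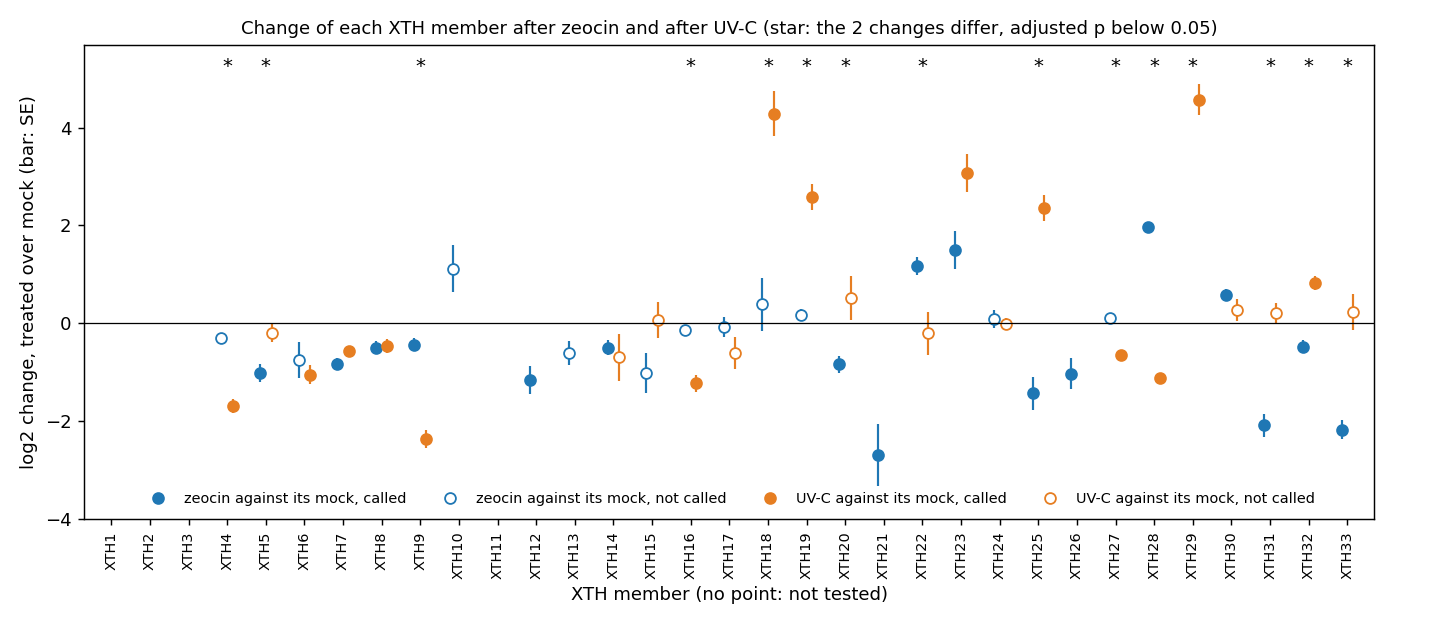
Log2 change of each XTH member against its own mock, with SE bars, after zeocin (blue) and after UV-C (orange), filled where the adjusted p was below 0.05. A star marks the 15 of 29 tested members whose changes differed between the treatments, where 47.2% of all genes were called. XTH28 stood at 1.97 after zeocin and -1.12 after UV-C, and XTH25 at -1.44 and 2.36.

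Whether a member responded differently to the 2 treatments was tested directly, as the UV-C change minus the zeocin change in 1 fit over all 16 libraries. Of the 29 members tested, 9 had a higher UV-C change and 6 a lower one, for 23.4% and 23.8% of all 17204 genes tested, and 47.2% in either direction. The count of members called was near this background and is no result about the family. The 9 include XTH29, which passed the filter in the UV-C experiment through the UV-C group alone and so had to differ. The median difference was 0.23 over the tested members and -0.03 over all genes. The plot of both changes shows these members with stars. The treatments differed also in dose, time, assembly and number of libraries, and these cannot be told apart from the kind of damage.

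XTH28 had the most negative difference, -3.12 ± 0.15 on the log2 scale (adjusted p = 4.59e-11, edgeR), rising after zeocin and falling after UV-C. XTH9 differed by -1.96 ± 0.25 (adjusted p = 8.21e-06), XTH4 by -1.41 ± 0.19 (adjusted p = 1.04e-05), XTH16 by -1.13 ± 0.16 (adjusted p = 2.52e-05) and XTH27 by -0.78 ± 0.15 (adjusted p = 0.000317, edgeR for each), all with the lower value after UV-C. XTH22 differed by -1.41 ± 0.47 (adjusted p = 0.0228, edgeR), and by -0.71 without UV-C mock replicate 3 (adjusted p = 0.0881, edgeR), the library in which it was highest. Its adjusted p was also 0.0526 without UV-C replicate 1 and 0.0610 without UV-C replicate 2 (edgeR).

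In the other direction, XTH18 differed by 3.88 ± 0.88 (adjusted p = 0.00260, and 4.62 without UV-C mock replicate 3), XTH25 by 3.76 ± 0.55 (adjusted p = 3.36e-05) and XTH19 by 2.38 ± 0.27 (adjusted p = 2.16e-06, edgeR for each). XTH25 fell after zeocin and rose after UV-C, as did XTH32, which differed by 1.27 ± 0.22 (adjusted p = 0.000170, edgeR). As given above, the UV-C locus of XTH25 lay partly outside its exons and the zeocin locus did not. XTH31 and XTH33 differed by 2.26 ± 0.36 and 2.38 ± 0.42, the fall being that after zeocin. The locus of XTH33 covered 65.5% of the gene in the UV-C experiment, with 9 to 16 fragments per library, and 93.3% in the zeocin experiment. XTH29 differed by 4.01 ± 1.31, as it had to after passing the filter through the UV-C group alone. Its zeocin locus covered 34.9% of the gene with 0 to 15 fragments per library. The value was 6.03 without zeocin replicate 5 and 3.51 without zeocin mock replicate 2 (adjusted p = 0.0619, edgeR). XTH20 differed by 1.33 ± 0.44 and by 0.87 without UV-C replicate 3 (adjusted p = 0.124, edgeR), or 0.99 without UV-C mock replicate 2 (adjusted p = 0.0567, edgeR). The locus of XTH20 covered 35.9% of the gene in the UV-C experiment and 68.6% in the zeocin experiment. XTH5 differed by 0.78 ± 0.28, and its call was lost without zeocin mock replicate 4, UV-C mock replicate 2 or 3 or UV-C replicate 3 (adjusted p-values of 0.0502 to 0.0929, edgeR). XTH23, which rose after both treatments, had a difference of 1.56 ± 0.64 that was not called (adjusted p = 0.0602, edgeR), and it was called without zeocin mock replicate 1 or 5 or UV-C mock replicate 3, the last with 2.18 (adjusted p = 0.0194, edgeR). XTH15, not called, had 1.06 ± 0.64, and 1.52 without zeocin replicate 5 (adjusted p = 0.0221, edgeR).

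Set side by side, XTH23 was the 1 member that rose in both experiments, and XTH7, XTH8 and XTH9 fell in both. The share of all genes called alike in both was not counted. As given above, XTH8 after UV-C and XTH9 after zeocin lost their calls without certain libraries. XTH15, XTH17 and XTH24 were called in neither. The numbering of the family follows its tree, and its groups are set here beside the shares of all loci, 12.0% lower and 15.0% higher after zeocin and 30.9% lower and 33.6% higher after UV-C. Among XTH1 to XTH11, 4 of 7 tested fell after zeocin and 5 of 6 tested fell after UV-C, and 0 rose in either. At an unadjusted p below 0.05, 1 was higher after zeocin and 0 after UV-C, and DESeq2 called 0 higher in either. In the fit without the filter, however, XTH10 and XTH11 of this group were called higher after UV-C (adjusted p = 0.0114 and 0.0103, edgeR). Among XTH12 to XTH26, 2 rose and 6 fell of 15 tested after zeocin, and 4 rose and 1 fell of 11 tested after UV-C. Among XTH27 to XTH33, 2 rose and 3 fell of 6 tested after zeocin, and 2 rose and 2 fell of 7 tested after UV-C. Neighbours did not always move alike. In the group XTH12, XTH13, XTH25 and XTH22 on chromosome 5, XTH12 and XTH25 fell and XTH22 rose after zeocin, while XTH13 was not called.

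The 300 bases upstream of each annotated gene start were read for short motifs on both strands. SOG1, the transcription factor at the head of the plant response to DNA breaks, is known to bind CTT and AAG separated by 7 bases, a palindrome that reads the same on both strands. It was present upstream of 6 of the 33 members (XTH1, XTH10, XTH16, XTH23, XTH26 and XTH28), or 18.2%, and of 11.4% of 27443 protein-coding genes. Of these members, XTH23 and XTH28 rose after zeocin, XTH26 fell, XTH10 and XTH16 were not called and XTH1 had no locus. The upstream sequences of XTH28 (chr1:5068678-5068977, minus strand) and XTH23 (chr4:13128094-13128393, plus strand) are shown because these are the 2 steepest rises after zeocin, from the TAIR10 genome (RefSeq build TAIR10.1), 5′ to 3′, with the arms of the palindrome in capitals.
XTH28: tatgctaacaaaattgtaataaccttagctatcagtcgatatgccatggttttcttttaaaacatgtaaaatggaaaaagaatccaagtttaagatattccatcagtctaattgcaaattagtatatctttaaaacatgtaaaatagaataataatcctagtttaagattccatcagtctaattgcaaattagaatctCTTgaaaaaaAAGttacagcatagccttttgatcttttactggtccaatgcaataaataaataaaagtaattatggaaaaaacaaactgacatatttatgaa
XTH23: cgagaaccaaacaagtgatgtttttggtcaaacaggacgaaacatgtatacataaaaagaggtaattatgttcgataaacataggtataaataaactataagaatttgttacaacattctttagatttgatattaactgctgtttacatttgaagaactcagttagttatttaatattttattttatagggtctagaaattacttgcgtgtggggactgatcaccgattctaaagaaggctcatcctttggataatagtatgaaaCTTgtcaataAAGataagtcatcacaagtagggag
The palindrome began 102 bases before the start of XTH28 and 35 bases before that of XTH23. The W-box core TTGAC, read by WRKY factors, was found upstream of 17 members (51.5%, against 50.4% of all genes), and CGCGT, the core of the site of calmodulin-binding CAMTA factors, upstream of 3 (XTH13, XTH18 and XTH20, 9.09% against 7.89%). The G-box CACGTG was found upstream of none of the members and of 7.09% of all genes. These matches describe the letters of the windows and show no binding.

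Other genes of the xyloglucan pathway and of wall growth were counted from lists of known genes. The counts are to be read against all loci, of which 12.0% were lower and 15.0% higher after zeocin, and 30.9% lower and 33.6% higher after UV-C. The UV-C counts of the synthesis genes and the expansins were near those shares. Of the 12 tested xyloglucan synthesis genes, 1 rose and 2 fell after zeocin, with a median log2 change of -0.11. The galactosyltransferase gene XLT2 fell by 1.03 and CSLC5, for a glucan backbone synthase, by 0.75, while the fucosyltransferase gene FUT1 rose by 0.30. After UV-C, 3 rose and 5 fell of 12, with a median of -0.07, and the examples were AXY4 (0.62) and XLT2 (0.55) among the higher and CSLC8 (-0.85) and the xylosyltransferase gene XXT4 (-0.79) among the lower. Glycosidases that trim xyloglucan in the wall fell in part. After zeocin 2 of 5 fell, XYL1, an alpha-xylosidase, by 0.84 and AXY8, an alpha-fucosidase, by 0.57. After UV-C 3 of 5 fell and 1, AT5G20950, rose by 0.37. The beta-galactosidase gene BGAL10 fell by 3.22, from 57.5 ± 4.10 to 6.16 ± 0.39 CPM, and XYL1 by 1.53.

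Alpha-expansins loosen the wall without cutting it. After zeocin 8 of 18 tested fell and 1 rose, with a median log2 change of -0.58. EXPA15 fell by 1.96 and EXPA18 by 1.03. EXPA12, the 1 that rose, had 0 to 1 fragments per mock library and 16 to 29 per zeocin library over a locus that covered 44.5% of the gene. It passed the filter through the zeocin group alone, so it had to differ. After UV-C 7 of 17 fell and 4 rose, among them EXPA16 (-3.09) and EXPA3 (-1.60), and EXPA17 (1.75) and EXPA10 (1.57). EXPA16 passed the filter through the mock group alone, so it had to differ. Of the cellulose synthesis genes, 3 of 11 fell after zeocin and 0 rose (0 also by DESeq2 or at an unadjusted p below 0.05), CESA6 by 0.42 and CESA1 by 0.33. After UV-C 7 of 9 fell, COB, which guides microfibril alignment, by 1.09 and CESA3 by 0.83, and CESA8 of the secondary wall rose by 0.62. The touch-inducible calmodulin-related genes, which like XTH22 are known to respond to touch, rose after both treatments, apart from CML24 after zeocin. CML12 (TCH3) rose by 1.43 and CAM2 (TCH1) by 0.84 after zeocin, while CML24 (TCH2) had a log2 change of -0.18 that was not called. After UV-C all 3 rose, CAM2 by 2.93, CML12 by 2.26 and CML24 by 0.98. Their summed level was 315 to 529 CPM in the zeocin mock libraries and 977 to 1245 CPM after zeocin, and 137 to 261 against 863 to 912 CPM in the UV-C experiment.

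**Figure D4:**
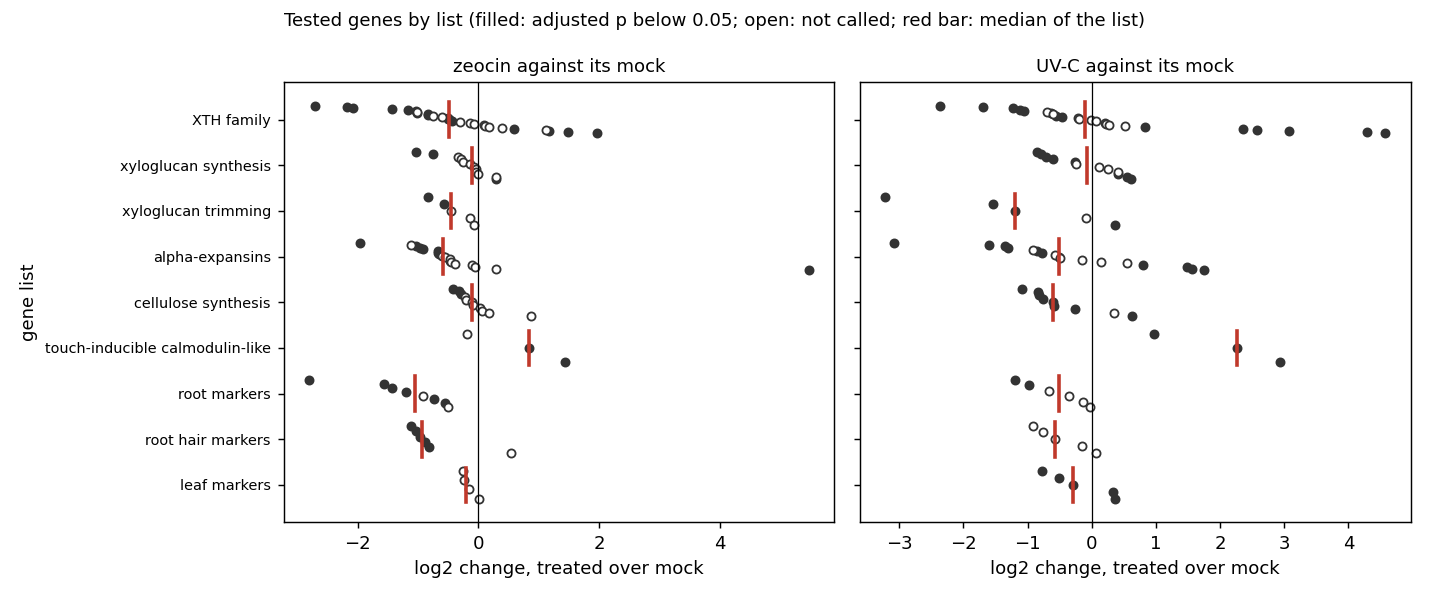
Log2 changes of the tested genes of each list after zeocin (left) and after UV-C (right), filled where the adjusted p was below 0.05, with the median as a red bar. After zeocin the medians were -0.49 for the XTH family, -0.58 for the alpha-expansins and -1.06 for the root markers, and after UV-C -0.11, -0.52 and -0.51.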

How the data were processed

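Per the labels' protocols, stranded libraries were prepared from rRNA-depleted total RNA. The authors deposited raw fragment counts for each locus, with a separate table for zeocin and for UV-C. Trimming used Trim Galore 0.11.8 and alignment used STAR 2.7.1a on TAIR10, per the submitters' processing notes. Per the file headers, loci were assembled with StringTie 2.1.5 without a reference annotation and counted with featureCounts 2.0.1 by strand. The authors' options left out fragments that mapped to several places. All 16 count columns were used, and 0 were left unmapped.

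Introns of the loci matched annotated introns for 97.0% (zeocin) and 99.2% (UV-C), so the coordinates of the TAIR10.1 reference could be used. Counts were tested with edgeR 4.0.16 in R 4.3.3 (robust quasi-likelihood test, TMM scaling, filterByExpr with a minimum count of 10, Benjamini-Hochberg adjustment over all loci, called below 0.05). SE was the absolute log2 change over the square root of F. The difference between treatments used genes with a locus in both tables. Alternatives were DESeq2 1.42.0, upper quartile factors, no filter, a stricter overlap, chromosomes alone, each library left out and the replicate number as a block. The fits were tested on simulated data. The 33 members were all named. Values per library were given for called members with a log2 change of at least 1 and for the most abundant, and at most 2 called genes per direction from each other list. The members and lists were chosen with earlier results of these data known. Replicates differed by more than sampling noise in every pair, so none was counted as a duplicate. Depth was 27973871 to 44536500 fragments per library.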

Additional observations from a re-analysis of the deposited data

Results flagged for a closer look

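In the groups of 5 libraries, 5 member values stood apart from the other 4 by Dixon's test among 56 groups tested, and chance flags about 1 group in 20. XTH15 in zeocin replicate 5 was 51.6 CPM, above the rest of its group. XTH25 in zeocin replicate 1 was 2.63 CPM and XTH32 in zeocin replicate 3 was 21.7 CPM, both the highest of their group. XTH17 in zeocin replicate 1 was 4.36 CPM and XTH24 in zeocin mock replicate 1 was 516 CPM, both the lowest.

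The changes of 15 of the 29 tested members differed between UV-C and zeocin by the test of the difference itself. Of all 17204 genes tested, 47.2% were called, so the count was near the background. The difference is given here as the UV-C log2 change minus the zeocin log2 change. It was negative for XTH28 (-3.12), XTH9 (-1.96), XTH4 (-1.41), XTH22 (-1.41), XTH16 (-1.13) and XTH27 (-0.78). It was positive for XTH29 (4.01), XTH18 (3.88), XTH25 (3.76), XTH19 (2.38), XTH33 (2.38), XTH31 (2.26), XTH20 (1.33), XTH32 (1.27) and XTH5 (0.78). XTH29 passed the filter in the UV-C experiment through the UV-C group alone, so it had to differ, and the 15 include it.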

How the results depend on the processing

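Every called XTH member kept its direction under all alternatives that gave a value: upper quartile factors, DESeq2, no filter, a 50% overlap of both gene and locus, chromosomes 1 to 5 alone, each library left out and the replicate block. The count of members higher after zeocin was 4 to 5 and lower 13 to 15 over the alternatives that keep all libraries, and 4 to 5 and 10 to 14 with 1 library left out, against 4 and 13. After UV-C the counts were 5 to 8 and 8, and 6 to 7 and 7 to 10, against 6 and 8. For the difference between treatments they were 7 to 10 and 6, and 7 to 10 and 5 to 6, against 9 and 6. Of the called members, 14 of 17 (zeocin), 13 of 14 (UV-C) and 11 of 15 (difference) were called in every alternative that gave a value. With a 50% overlap of both gene and locus, XTH29 had no value after UV-C, and XTH20 and XTH29 had none for the difference. The difference has no separate fit on chromosomes alone, since all its genes are nuclear. XTH4 after zeocin was called with DESeq2 (adjusted p = 0.0260) and with upper quartile factors (adjusted p = 0.0253), and XTH16 with the latter (adjusted p = 0.0373). XTH15 after zeocin was called with DESeq2 (adjusted p = 0.0456). The difference for XTH23 was called with DESeq2 (adjusted p = 0.0347). The cause was not tested. Upper quartile factors moved the median of all loci after UV-C from 0.00 to -0.10 on the log2 scale. Same-numbered libraries did not deviate together in every pair (r of -0.10 to 0.43 over 5 pairs for zeocin, -0.30 to 0.16 over 3 pairs for UV-C), and 2 of 5 and 0 of 3 treated libraries correlated best with their own number. With the replicate block, 5 members were higher and 14 lower after zeocin, 6 and 8 after UV-C, and 9 and 6 for the difference, but not with the same members throughout. Under the block XTH4 (adjusted p = 0.0240) and XTH18 (log2 change 0.54, adjusted p = 0.0482) were called after zeocin, and for the difference XTH23 was gained (1.59, adjusted p = 0.0269) and XTH5 lost (0.78, adjusted p = 0.0650). Low counts limit the precision for members such as XTH10 and XTH21 after zeocin and XTH29 and XTH33 after UV-C. Without the filter, 2 further members, XTH10 and XTH11, were called higher after UV-C.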
